A study of Mus musculus with 4 samples.

Results

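The nuclear genes for the subunits of respiratory complexes II to V were followed in RNA-seq data of mouse heart. Members were the symbols Sdha to Sdhd for complex II, Cyc1 and those that begin with Uqcr for complex III, Cox4 to Cox8 for complex IV, and Atp5 followed by a letter for complex V. A symbol was kept where any of the 4 libraries held 10 or more of its reads. Of 48 symbols that matched, Cox8c was left out with 0 reads in every library, and the member nearest to the limit was Cox7b2, with at most 15 reads. Of the 23337 symbols in the files, 47 remained. They were 4 genes of complex II, 9 of complex III, 17 of complex IV and 17 of complex V, and 46 of the 47 had 10 reads in every library. Cox4nb, which is not a subunit, was not counted. The pattern also takes in Cox7a2l, a factor for supercomplex assembly, and Atp5s and Atp5sl (now Dmac2), which are not core subunits of ATP synthase.

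Hearts of mice on the C57BL6/J background formed 4 groups. PIMT fl/fl mice of 2 and 6 months of age carry loxP sites around exons 3 and 4 of the PIMT gene and no Cre, and served as controls. csPIMT-/- mice of 2 and 6 months carry the same floxed alleles plus Cre recombinase under the α-MyHC promoter, which deletes these exons in cardiomyocytes from the late embryonic period, while the other cells of the heart keep the gene. RNA of 5 hearts, of male and female mice, was pooled for each group and gave 1 library, so the spread between replicates of a group is unknown.

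Complexes II, III and IV pass electrons from succinate and from the products of complex I to oxygen, and complexes III and IV pump protons across the inner mitochondrial membrane. Complex V, the ATP synthase, lets protons flow back through a ring of c subunits and makes ATP. Complexes III to V also contain subunits encoded in mitochondrial DNA, and those genes are not among the symbols analysed here. Several complex IV subunits, and the c subunit of complex V, are made from more than 1 nuclear gene. For subunits 6a, 7a and 8 one form is found in heart and skeletal muscle and the other in most tissues.

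The deposited values are normalized counts, from which whole reads were recovered. The libraries held between 29823073 reads (csPIMT-/-, 2 months) and 40705783 reads (PIMT fl/fl, 6 months). The PIMT gene, listed as Tgs1, had 580 normalized counts in the 2-month control and 816 in the 6-month control, against 160 and 162 after the deletion. Summed cardiomyocyte markers lay between 1581460 and 1853870 normalized counts, with no marker at 0. The pools also differed in ways that the genotype label does not state. In the 2-month csPIMT-/- library 4 of 8 brown fat markers were more than 2-fold above the control, with none at 0, and Ucp1, which defines brown fat, had 1432 reads there against 10, 106 and 12 in the others. Over the whole list the sum was not higher in that library, with 9734 normalized counts against 12475 and 11700 in the controls and 6534 in the 6-month csPIMT-/- library, since Fabp4 and Cidea make up most of it. Lung markers summed to 1237 normalized counts in the 2-month csPIMT-/- library and to between 24.6 and 99.9 in the rest. Bpifa1 made up 979 of the 1237. Of the 5 lung markers compared at 2 months, 4 were more than 2-fold above the control. Ager went the other way, with 8 reads against 44 in the control. Atrial markers summed to 42285 in the 2-month control and to between 127849 and 352961 elsewhere. Nppa made up most of the sum in every library, with 320296 of the 352961 in the 6-month csPIMT-/- library. At 2 months all 7 atrial markers were more than 2-fold above the control. At 6 months 6 of the 7 were below the control of that age, with a median quotient of 0.498 over the 7. Nppa alone was above it, so at 6 months the sum followed Nppa and not the other atrial markers. Fibroblast markers summed to 286461 and 149498 in the controls of 2 and 6 months, and to 196042 and 207079 in csPIMT-/- hearts. Of 8 compared, 5 were below the control at 2 months and 7 above it at 6 months. Leukocyte markers summed to 6395 and 16755 in the controls and to 20646 and 27199 in csPIMT-/- hearts. Of 6 compared, 5 were above the control and 1 below it at each age. The Y-linked gene Ddx3y had 3150 normalized counts in the 2-month control and between 162 and 514 in the other pools. The part of these differences in the values given here was not tested.

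At each age, reads of a gene in the csPIMT-/- library were divided by its reads in the PIMT fl/fl library, after scaling by the median of ratios, and this quotient is called the ratio. Its 95% interval is an exact Clopper-Pearson interval and covers counting error only. Normalized counts are given on the authors' scale, and at 2 months the ratio was 0.336% above their quotient. Between the 2 controls the gap was larger, and the ratio of 6 over 2 months was 0.95 times the quotient of the deposited values. In pooled tissue, fewer cells of a type and less RNA per cell cannot be told apart.

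Most subunit genes had moderately higher counts in csPIMT-/- hearts, and a small set had clearly lower counts. At 2 months 34 of 47 members had a ratio above 1, which is 72.3% against 50.1% of all 15152 genes compared. At 6 months 34 of 47 were again above 1, against 50% of 15218 genes. The median ratio of the members was 1.33 at 2 months and 1.22 at 6 months, and the medians over all genes were 1.001 and 0.999. Few members were far from 1. At 2 months 2 members, Uqcrb and Cox7b, had a ratio below 0.5, or 4.26% of the members against 22.3% of all genes, and 0 members were above 2, against 17.4%. At 6 months 6 members (12.8%, all genes 25.1%) were below 0.5, namely Sdha, Uqcrb, Cox7b, Cox7b2, Atp5f1 and Atp5s. Cox6a1 was the 1 member above 2 at that age (2.13%, all genes 16.8%).

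**Figure D1:**
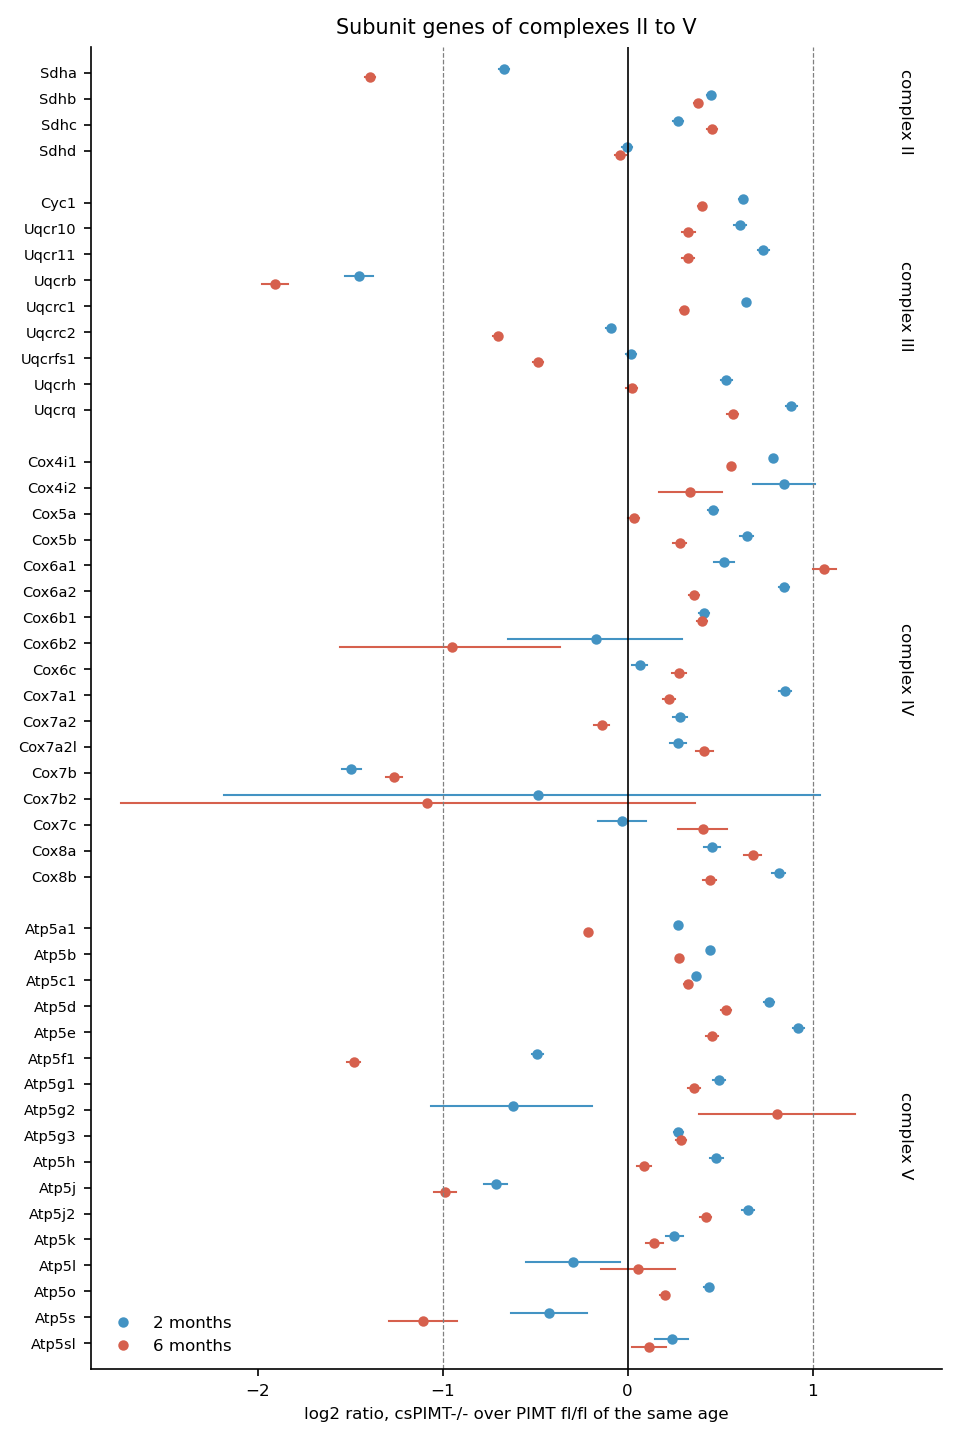
The x axis gives the log2 ratio of csPIMT-/- over PIMT fl/fl of the same age for each of the 47 members, grouped by complex on the y axis, at 2 months (blue) and 6 months (red). Lines are 95% counting intervals and dashed lines mark 2-fold. Most points lie between 0 and 1, while Uqcrb and Cox7b lie below −1 at both ages.

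The intervals gave a like count. At 2 months 33 members had an interval above 1 (all genes 42.4%) and 9 had one below 1 (all genes 41.6%), and at 6 months 32 (all genes 42.8%) and 12 (all genes 42.5%) did. Between the ages, 31 members were above 1 at both (66%, all genes 39.4%), 10 were below 1 at both (21.3%, all genes 39.8%) and 6 changed side (12.8%, all genes 20.8%). Uqcrb and Cox7b were below 0.5 at both ages (4.26%, all genes 16%), and 0 members were above 2 at both (all genes 7.74%). These 2 comparisons share no library.

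The order of the libraries was similar. Both csPIMT-/- libraries were above both controls for 27 of 47 members, or 57.4%, against 35.1% of 14935 genes. Both were below both controls for 8 members, or 17%, against 35.8%. These 8 were Sdha in complex II, Uqcrb and Uqcrc2 in complex III, Cox7b and Cox7b2 in complex IV, and Atp5f1, Atp5j and Atp5s in complex V. The ratio was larger at 2 than at 6 months for 37 of 47 members. The share of all genes with this order was not computed, so this count cannot be set against it. Between the 2 controls, 36 of 47 members were lower at 6 months (76.6%, all genes 50%), or 31 on the scale of the deposited values, and 0 were past 2-fold in either direction, against 5.27% of 15132 genes below 0.5 and 8.05% above 2. The members took 2.90% and 2.65% of the reads of the controls (2 and 6 months), against 3.56% and 2.72% in csPIMT-/- hearts.

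**Figure D2:**
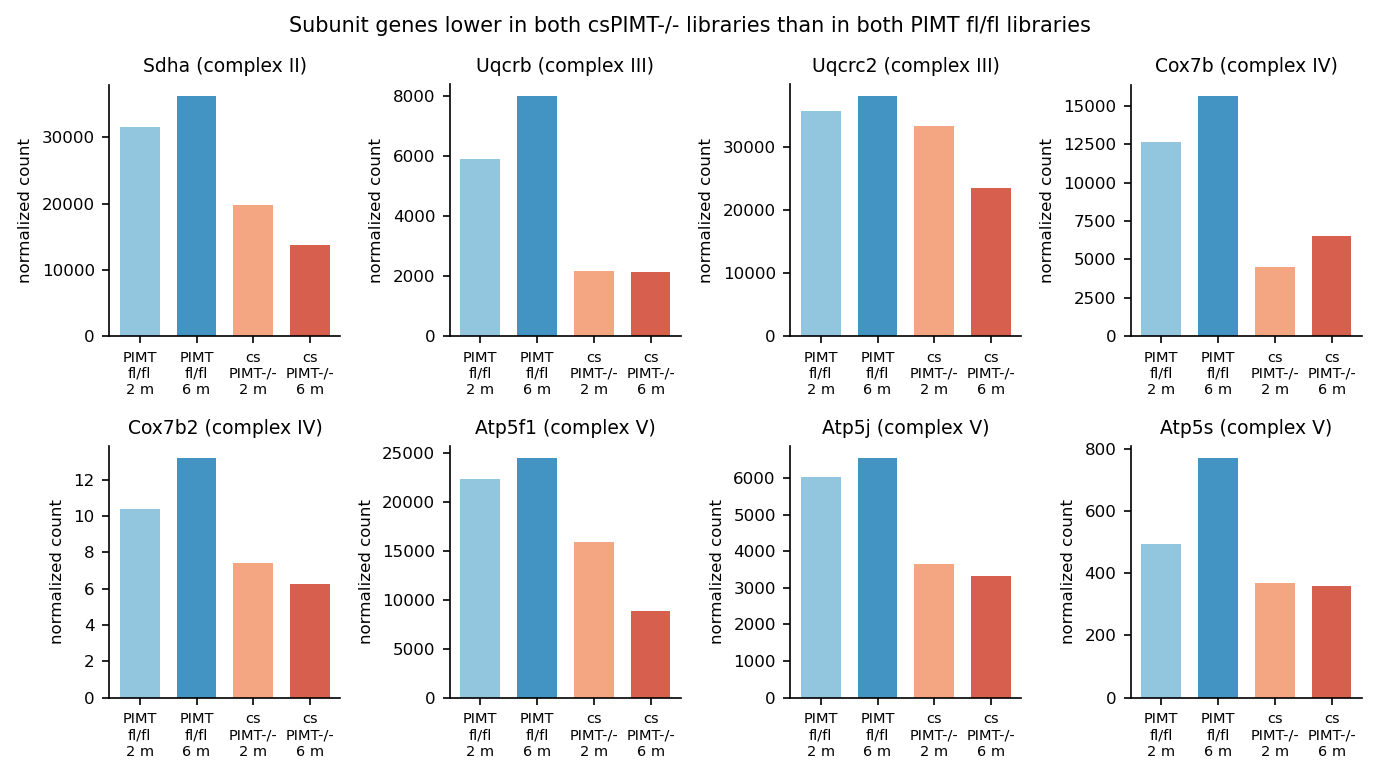
Bars give normalized counts (y axis, from 0) in the 4 libraries for the 8 members that were lower in both csPIMT-/- libraries than in both controls. Each bar is 1 library of 5 pooled hearts, so there is no error bar. Uqcrb has 5909 and 7972 in the controls against 2151 and 2133, while Cox7b2 has no more than 13.2 normalized counts in any library.

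The ratios moved with the base composition of the transcripts, in all genes and in the members. Across 14974 genes, Spearman's rho between the log2 ratio and the GC content of the transcript was 0.595 at 2 months, and across 15038 genes it was 0.622 at 6 months. Across the 47 members the values were 0.539 and 0.525. With the GC content of the coding part alone, rho across the members was 0.602 and 0.603. Genes are not independent replicates, all points share the same pair of libraries, and no p-value is given. Between the 2 controls rho was −0.272 over all genes. The members with low ratios were mostly low in GC. The coding part had 42.9% GC in Uqcrb, 43.5% in Atp5j, 42.0% in Atp5s, 41.5% in Cox7b2, 46.7% in Uqcrc2, 47.1% in Atp5f1 and 47.5% in Cox7b, against a median of 53.5% in the members. Sdha, at 51.3% in the coding part, was closest to that median among the 8. For whole transcripts the median of the members was 50.6%. Atp5f1 at 49.1% was then closer to it than Sdha at 48.5%, and Atp5j at 56.0% lay above it.

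When the trend of the log2 ratio with GC content was subtracted, the median member ratio was 1.16 at 2 months and 0.982 at 6 months. At 2 months 70.2% of the members were above 1, against 51.4% of all genes. At 6 months 48.9% were above 1, close to the 51% of all genes. Tgs1, the deleted gene, had ratios of 0.277 at 2 months and 0.198 at 6 months. After this subtraction they were 0.659 and 0.537, so the correction also shrank the difference of the gene known to be deleted. At 2 months Atp5j and Atp5g2 were then below 0.5 (4.26%, all genes 11%) and Atp5g1, Atp5s and Cox7b2 above 2 (6.38%, all genes 14.4%), and at 6 months Sdha, Atp5f1, Atp5j and Cox6b2 were below 0.5 (8.51%, all genes 12.7%) and Cox7c above 2 (2.13%, all genes 13.4%). The GC content was taken in 3 ways, from the principal transcript, its coding part or the longest transcript of the gene. Sdha was the 1 member below 1 at both ages under every alternative scaling, control, read minimum, pseudocount and GC correction tried, with values between 0.542 and 0.765 at 2 months and between 0.372 and 0.469 at 6 months. Members above 1 at both ages under all of these numbered 7, namely Sdhc, Uqcrq, Cox6b1, Cox6c, Cox7a2l, Atp5c1 and Atp5j2.

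**Figure D3:**
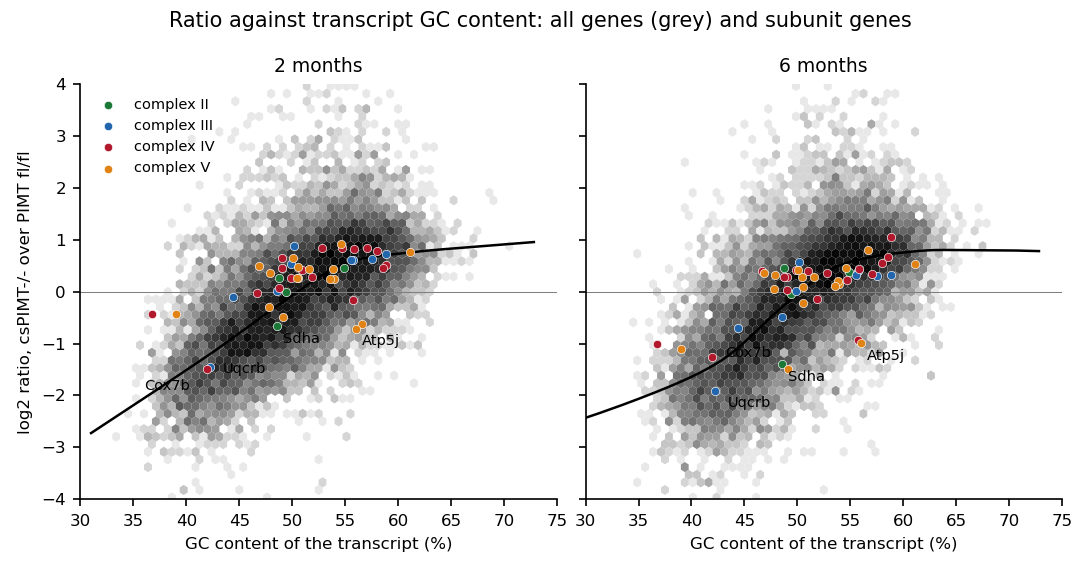
The x axis gives the GC content of the transcript in percent and the y axis the log2 ratio of csPIMT-/- over PIMT fl/fl, with 0.5 reads added. Grey cells hold all genes (darker means more genes, log scale), the black line is the trend that was subtracted and coloured points are the members. Genes beyond the ends of the y axis are not drawn. Uqcrb and Cox7b lie nearer to the line than Sdha and Atp5j, which lie below it.

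Complex II, succinate dehydrogenase, is the one complex with no subunit from mitochondrial DNA, and its 4 genes did not move together. Sdha encodes the flavoprotein that oxidizes succinate and lies at chr13:74322254-74350280 on the minus strand (GRCm38). It had 31495 and 36149 normalized counts in the controls of 2 and 6 months, against 19737 and 13794 in csPIMT-/- hearts of these ages. Both csPIMT-/- values were below both controls, and the 6-month value was the lowest. The ratio was 0.629 (95% interval 0.617 to 0.641) at 2 months and 0.380 (0.373 to 0.388) at 6 months.

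Sdhb, the iron-sulfur subunit, had 29877 and 28878 normalized counts in the controls and 40702 and 37762 in csPIMT-/- hearts. Its ratio was 1.37 at 2 months and 1.30 at 6 months, on the opposite side of 1 from Sdha. Sdhc, a membrane anchor with part of the ubiquinone site, had 20646 and 18154 in the controls and 24873 and 25017 in csPIMT-/- hearts, with ratios of 1.21 and 1.37. The other anchor, Sdhd, had 23271 and 19971 in the controls and 23114 and 19500 in csPIMT-/- hearts. Its ratios of 0.997 and 0.974 were the nearest to 1 in the complex, and the values differed more between the 2 ages than between the genotypes. Per kilobase of transcript, Sdha had 10860 and 12465 normalized counts in the controls and 6806 and 4757 in csPIMT-/- hearts, while Sdhb had 26162 and 25287 and then 35641 and 33066.

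The promoter of Sdha is shown because its ratio stayed below 1 at both ages under every correction for GC content, as did that of Cox6b2, which had few reads. These are the last 150 bases before the RefSeq start of the gene (GRCm38.p6, chr13:74350241-74350390, minus strand). Capitals mark matches on either strand to a motif of the respiratory factor NRF1, spelled GCGC, then any base, then TGCGC.
Sdha: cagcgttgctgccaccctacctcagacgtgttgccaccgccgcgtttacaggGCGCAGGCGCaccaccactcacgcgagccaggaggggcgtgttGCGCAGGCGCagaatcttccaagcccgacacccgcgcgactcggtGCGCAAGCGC
The stretch held 3 matches. The start of Sdha by the gene coordinates given above, from GENCODE M21, lies within it, and the last match falls inside that gene span. In the 250 bases before the start, 7 of 37 promoters of members held this motif on either strand (18.9%), against 3.74% of 32851 promoters. A promoter sequence was found for 34 of 47 members. A match is a run of letters and says nothing about binding.

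In complex III, the cytochrome bc1 complex, 7 of 9 members had a ratio above 1 at 2 months. At 6 months 6 of 9 did. The ratio was larger at 2 months for all 9, again with no share of all genes computed for this order. The core proteins did not move alike. Uqcrc1 had 57291 and 49470 normalized counts in the controls and 89061 and 61188 in csPIMT-/- hearts, with ratios of 1.56 and 1.23. Its partner in the core, Uqcrc2, had 35601 and 37927 in the controls and 33291 and 23370 in csPIMT-/- hearts, with ratios of 0.938 and 0.614. The 2 genes thus differed in direction at both ages. After the GC trend was subtracted they changed sides, with 1.73 and 1.30 for Uqcrc2 and 0.975 and 0.762 for Uqcrc1. In Uqcrc2, 24.8% of the 50-base windows of the transcript also occur in transcripts of Pdzd9, a gene on the other strand.

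Among the redox subunits, Cyc1, which encodes cytochrome c1, had ratios of 1.54 and 1.32. Uqcrfs1 encodes the Rieske iron-sulfur protein and had 27606 and 26973 normalized counts in the controls. In csPIMT-/- hearts it had 27861 at 2 months and 19317 at 6 months, so only the 6-month library lay below the controls. Its ratios were 1.01 (0.996 to 1.03) and 0.714 (0.701 to 0.727).

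Uqcrb, a small subunit next to the ubiquinone site, lies at chr13:66900617-66905378 on the minus strand. It had 5909 and 7972 normalized counts in the controls and 2151 and 2133 in csPIMT-/- hearts. Both csPIMT-/- values were far below both controls. Its ratio was the lowest of all 47 members at 6 months, and next to that of Cox7b the lowest at 2 months, at 0.365 (0.346 to 0.385) and 0.267 (0.254 to 0.280). Subtracting the trend with transcript GC gave 0.841 and 0.704, and the coding part gave 1.005 and 0.852. Windows of 50 bases of its transcript occur in other genes for 43.4% of positions, most of them in 4 pseudogenes, so part of its reads could have been dropped or split.

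The other small subunits went the opposite way. Uqcrq had 14521 and 14456 normalized counts in the controls and 26733 and 21488 in csPIMT-/- hearts, and its ratio of 1.85 at 2 months was the highest of the complex. At 6 months it was 1.48. Uqcr10 (1.52 and 1.26), Uqcr11 (1.66 and 1.25) and Uqcrh (1.45 and 1.02) were also higher at 2 months, and the interval of Uqcrh at 6 months, 0.995 to 1.04, included 1.

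Complex IV, cytochrome c oxidase, had 13 of 17 members above 1 at both 2 and 6 months, not all of them the same, with median ratios of 1.37 and 1.26. Cox4i1, the common form of the largest nuclear subunit, had 45497 and 45509 normalized counts in the controls and 78084 and 67195 in csPIMT-/- hearts. The controls were alike on the deposited scale, both csPIMT-/- libraries were higher, and the ratios were 1.72 and 1.47. Cox4i2, the form known from lung and from low oxygen, had 518 and 553 reads in the controls and 651 and 593 in csPIMT-/- hearts. Its ratios were 1.80 (1.60 to 2.02) and 1.26 (1.12 to 1.42). The share of Cox4i2 in both forms, per kilobase, stayed between 0.957% and 1.11% in the 4 libraries, also in the one with the highest sum of lung markers.

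Subunit 6a is the form pair in which the ages differed most. Cox6a2, the heart and skeletal muscle form, had 18292 and 18504 normalized counts in the controls and 32771 and 23829 in csPIMT-/- hearts, with ratios of 1.80 and 1.28. Cox6a1, the common form, had 4596 and 2893 in the controls and 6580 and 6060 in csPIMT-/- hearts. Both csPIMT-/- values were above both controls, but the controls themselves differed with a ratio of 0.598. The ratios of Cox6a1 were 1.44 (1.38 to 1.49) and 2.09 (2.00 to 2.18), and against the 2-month control the 6-month csPIMT-/- library gave 1.32. Corrected for the GC content of the transcript, coding part and longest transcript, the 2-month ratio of Cox6a1 was 0.877, 0.920 and 0.834. The transcript correction gave 1.26 for Cox6a1 at 6 months, and 1.44 and 0.982 for Cox6a2 at 2 and 6 months. The share of Cox6a2 per kilobase was 77.0% (76.4 to 77.5) and 84.3% (83.8 to 84.8) in the controls, and 80.7% (80.2 to 81.2) and 76.8% (76.2 to 77.3) in csPIMT-/- hearts. The share was thus higher than the control at 2 months and lower at 6 months. The controls differed from each other by as much, and the interval of the lowest csPIMT-/- share overlapped that of the lower control.

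In subunit 7a the muscle form had the higher ratio of the 2 forms at both ages, an order that turned when the GC content of the coding part was corrected for. Cox7a1, the heart and skeletal muscle form, had 12331 and 12442 normalized counts in the controls and 22197 and 14570 in csPIMT-/- hearts, with ratios of 1.81 and 1.17. The common form Cox7a2 had 10940 and 10544 in the controls and 13272 and 9596 in csPIMT-/- hearts, with ratios of 1.22 and 0.907. The share of Cox7a1 per kilobase was 65.4% (64.9 to 65.9) and 66.4% (65.9 to 67.0) in the controls. In csPIMT-/- hearts it was 73.7% (73.2 to 74.2) and 71.8% (71.3 to 72.3), above both controls. The quotient of Cox7a1 over Cox7a2, which needs no scaling of the libraries, was 1.48 times that of the control at 2 months (1.43 to 1.53) and 1.29 times at 6 months (1.24 to 1.33). Between the controls it changed 1.05 times (1.01 to 1.08). The transcript of Cox7a1 has 54.7% GC and that of Cox7a2 51.9%, and their coding parts have 56.7% and 50.6%. After subtraction of the trend with transcript GC, the ratio of Cox7a1 was 1.26 against 1.06 for Cox7a2 at 2 months, and 0.792 against 0.756 at 6 months. With the GC content of the coding part, Cox7a1 was below Cox7a2, with 1.29 against 1.45 at 2 months and 0.829 against 1.08 at 6 months. Brown fat also expresses Cox7a1, and the 2-month csPIMT-/- library was the one with the most Ucp1 reads. The part of brown fat in this result was not tested.

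Subunit 8 resembled subunit 6a more than subunit 7a. Cox8b, the heart and skeletal muscle form, had 10438 and 10564 normalized counts in the controls and 18321 and 14412 in csPIMT-/- hearts, with ratios of 1.76 and 1.36. Cox8a, the common form, had 7487 and 5393 in the controls and 10225 and 8640 in csPIMT-/- hearts, with ratios of 1.37 and 1.60. Subtracting the trend with transcript GC gave 0.840 and 0.966 for Cox8a, and 1.16 and 0.885 for Cox8b. The share of Cox8b per kilobase was 68.1% (67.4 to 68.7) and 74.95% (74.4 to 75.5) in the controls, and 73.2% (72.7 to 73.8) and 71.8% (71.3 to 72.4) in csPIMT-/- hearts. Both csPIMT-/- shares lay between the 2 controls. Cox8a and Cox6a1 were also the common forms with the largest difference between the controls, with ratios of 0.684 and 0.598 at 6 over 2 months.

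**Figure D4:**
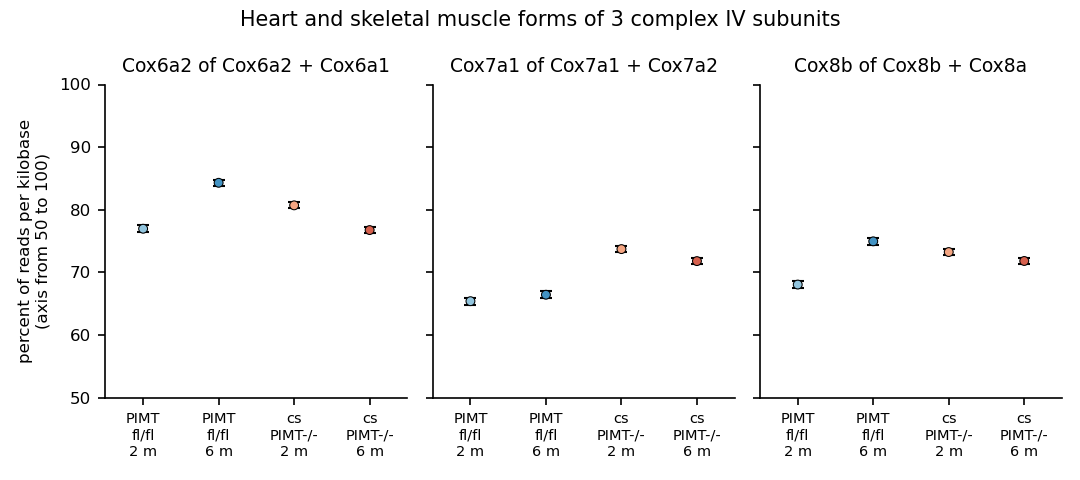
Points give the share of the heart and skeletal muscle form in the reads per kilobase of both forms (y axis, 50 to 100%) in the 4 libraries, for subunits 6a, 7a and 8. Error bars are 95% Clopper-Pearson intervals of the reads, about as tall as the points. For Cox7a1 both csPIMT-/- libraries (73.7% and 71.8%) lie above both controls (65.4% and 66.4%), while for Cox8b both lie between the controls (68.1% and 74.95%).

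The promoters of the 2 forms of subunits 7a and 8 are shown as their quotients were measured here. Each run is the last 150 bases before the RefSeq start (GRCm38.p6). A match to the E-box CAGCTG, which reads the same on both strands, is in capitals.
Cox7a1: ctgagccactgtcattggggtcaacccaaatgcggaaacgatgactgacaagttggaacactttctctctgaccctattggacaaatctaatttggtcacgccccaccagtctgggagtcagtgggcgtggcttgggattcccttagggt
Cox7a2: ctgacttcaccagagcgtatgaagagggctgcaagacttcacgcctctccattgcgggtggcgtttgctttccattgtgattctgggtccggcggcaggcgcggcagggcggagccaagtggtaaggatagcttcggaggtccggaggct
Cox8b: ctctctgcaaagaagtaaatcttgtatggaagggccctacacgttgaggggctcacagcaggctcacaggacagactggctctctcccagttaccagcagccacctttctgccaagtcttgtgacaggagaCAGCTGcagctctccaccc
Cox8a: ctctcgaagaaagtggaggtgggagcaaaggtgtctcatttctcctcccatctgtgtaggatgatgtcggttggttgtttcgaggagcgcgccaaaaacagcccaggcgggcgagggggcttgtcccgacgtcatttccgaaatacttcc
They lie at chr7:30184021-30184170 on the plus strand for Cox7a1, and on the minus strand at chr9:79759854-79760003 for Cox7a2, chr7:140900447-140900596 for Cox8b and chr19:7217617-7217766 for Cox8a. Of these, Cox8b held the E-box, as did 2 of 37 promoters of members (5.41%) and 13% of all promoters. The motif CTAAAAATA, of the MEF2 family, was in 0 of 37 promoters of members and in 0.469% of all promoters.

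Cox7b was the complex IV gene with the lowest ratio at both ages among those with more than 100 reads. It encodes a small subunit that the assembled enzyme needs, and lies on chromosome X at chrX:106015700-106022450, plus strand. It had 12674 and 15627 normalized counts in the controls and 4488 and 6529 in csPIMT-/- hearts, with ratios of 0.355 (0.343 to 0.368) and 0.417 (0.405 to 0.429). After subtraction of the GC trend of the transcript, which has 42.0% GC, the ratios were 0.840 and 1.13. With the GC content of the coding part they were 0.574 and 0.764. The sex makeup of the pools differed, with 805 normalized counts of Xist in the 2-month control, 25639 in the 6-month control, and 6369 and 12856 in csPIMT-/- hearts. The part of sex makeup in the result for Cox7b was not tested. Its testis form Cox7b2 had 12 and 15 reads in the controls and 6 in either csPIMT-/- library, too few to show a difference, with intervals from 0.220 to 2.06 and from 0.150 to 1.29.

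Subunit 6b differed by form. Cox6b1, the common form, had 20202 and 18191 normalized counts in the controls and 26784 and 24124 in csPIMT-/- hearts, with ratios of 1.33 and 1.32. The testis form Cox6b2 had 103 and 82 reads in the controls and 64 and 36 in csPIMT-/- hearts. Its ratio was 0.888 (0.640 to 1.23) at 2 months and 0.518 (0.340 to 0.775) at 6 months, and it made up at most 0.464% of both forms per kilobase. The subunits with a single gene were higher at 2 months than at 6 months for Cox5a (1.38 and 1.02) and Cox5b (1.56 and 1.22), and the reverse held for Cox6c (1.05 and 1.21), Cox7c (0.979 and 1.33) and Cox7a2l (1.21 and 1.33). Cox7c had between 794 and 1159 reads, and 53% of the 50-base windows of its transcript also occur in other genes.

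Complex V, the ATP synthase, had 12 of 17 members above 1 at 2 months and 13 of 17 at 6 months, with median ratios of 1.21 and 1.15. The catalytic head contains the α and β subunits. Atp5b, the β subunit, was the most abundant member per kilobase in both controls and had 144001 and 128093 normalized counts there, against 195331 and 155852 in csPIMT-/- hearts. Its ratios were 1.36 and 1.21. Atp5a1, the α subunit, had 137838 and 133543 in the controls and 166149 and 115292 in csPIMT-/- hearts. The 2-month csPIMT-/- value was the highest and the 6-month value the lowest of the 4, with ratios of 1.21 and 0.861, so α and β differed in direction at 6 months.

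The central stalk was uniformly higher. Its γ, δ and ε subunits Atp5c1 (1.29 and 1.25), Atp5d (1.699 and 1.44) and Atp5e (1.90 and 1.37) had intervals above 1 at both ages. Atp5e, with 12890 and 12254 normalized counts in the controls and 24362 and 16838 in csPIMT-/- hearts, had the highest ratio of all 47 members at 2 months. After the GC trend was subtracted, Atp5d came to 1.003 and 0.840 and Atp5e to 1.33 and 0.932, while Atp5c1 stayed at 1.68 at both ages.

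The peripheral stalk, which holds the head still, was split. Atp5f1, its b subunit, lies at chr3:105942698-105960099 on the minus strand and had 22358 and 24465 normalized counts in the controls and 15885 and 8794 in csPIMT-/- hearts. Its ratios were 0.713 (0.698 to 0.728) and 0.358 (0.350 to 0.367). The correction for GC content gave different answers, with 0.815 and 0.410 from the principal transcript, 1.199 and 0.692 from the coding part, and 2.37 and 1.22 from the longest transcript. Of its 50-base windows 38.7% occur in other genes, among them a pseudogene and Wdr77, whose exons overlap on the other strand.

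Atp5j, coupling factor 6 of the stalk, lies at chr16:84827866-84835625 on the minus strand. It had 6017 and 6543 normalized counts in the controls and 3658 and 3308 in csPIMT-/- hearts, with ratios of 0.610 (0.584 to 0.637) and 0.504 (0.483 to 0.526). The transcript has 56.0% GC but its coding part 43.5%, and the corrected ratios were 0.399 and 0.326 with the former and 1.57 and 1.52 with the latter. Exons of Gabpa, on the other strand, share 397 bases with those of Atp5j. The library kit marks strand, but whether the counting used it is not given in the sources used here, so reads of the pair may not have been told apart. The remaining parts of the stalk were higher, with ratios of 1.35 and 1.15 for Atp5o, which joins stalk and head, and of 1.39 and 1.06 for Atp5h, the d subunit.

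RefSeq gives 2 promoters for Atp5j (GRCm38.p6, minus strand). The one at chr16:84834977-84835126, inside the gene as placed above, is shown for the motifs of 2 factors of respiratory genes in its last 150 bases. The other, at chr16:84835626-84835775, lies directly before the start of the gene as placed above. It held 0 matches to the 6 motifs searched. Capitals mark AAGATGGC, a motif of YY1, and CCGGAAG, a motif of GABP and other ETS factors.
Atp5j: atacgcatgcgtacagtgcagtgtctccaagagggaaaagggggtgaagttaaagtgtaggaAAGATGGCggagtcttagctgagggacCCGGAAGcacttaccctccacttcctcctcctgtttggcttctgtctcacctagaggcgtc
On either strand of the 250 bases searched, CCGGAAG was in 9 of 37 promoters of members (24.3%) and in 6.91% of all promoters. AAGATGGC was in 1 of 37 (2.7%) and in 1.56% of all. TCAAGGTCA, a motif of the estrogen-related receptors, was in 1 of 37, that of Atp5g3, and in 0.387% of all. The promoter of Cox7b, the low member of complex IV, held 0 matches to the 6 motifs searched.

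The c subunit that forms the proton ring has 3 genes, whose mature proteins are the same and whose import sequences differ. Over the last 75 codons, 225 bases, the coding sequence of Atp5g2 differs from that of Atp5g1 at 34 positions and that of Atp5g3 at 45, and no run identical to Atp5g1 is longer than 20 bases. The first 90 of these bases are shown (GENCODE M21, GRCm38) to let the genes be told apart, with capitals where a base differs from Atp5g1.
Atp5g1: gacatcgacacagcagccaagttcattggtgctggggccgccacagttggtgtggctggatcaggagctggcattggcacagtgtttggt
Atp5g2: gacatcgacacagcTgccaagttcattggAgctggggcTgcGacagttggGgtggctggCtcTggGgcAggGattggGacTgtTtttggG
Atp5g3: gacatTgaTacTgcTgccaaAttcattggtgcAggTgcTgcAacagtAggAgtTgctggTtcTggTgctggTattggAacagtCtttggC
Reads of 50 bases therefore distinguish the 3 genes over this stretch, though not each gene from its pseudogenes.

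Atp5g3 had 26685 and 20150 normalized counts in the controls and 32140 and 24708 in csPIMT-/- hearts, with ratios of 1.21 and 1.22. Atp5g1 had 11895 and 11424 in the controls and 16696 and 14697 in csPIMT-/- hearts, with ratios of 1.41 and 1.28. Both genes were higher in the csPIMT-/- library than in the control of the same age. With the GC content of the coding part, Atp5g1 had 0.997 and 0.904, and Atp5g3 had 1.61 and 1.72. Against the 2-month control, the 6-month csPIMT-/- library gave 0.927 for Atp5g3 and 1.24 for Atp5g1. Atp5g2 had 145 and 81 reads in the controls and 66 and 120 in csPIMT-/- hearts, with ratios of 0.651 (0.479 to 0.876) and 1.75 (1.31 to 2.35). The controls alone differed as much for this gene, with a ratio of 0.539, and 87.4% of its 50-base windows occur in other genes, so its few reads may not stand for its level. None of the 50-base windows of Atp5g3 was found elsewhere.

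The small membrane subunits of complex V were Atp5j2 (f subunit, ratios 1.57 and 1.34), Atp5k (e subunit, 1.19 and 1.11) and Atp5l (g subunit). Atp5l had 358 and 443 reads in the controls and 204 and 391 in csPIMT-/- hearts, with ratios of 0.815 (0.683 to 0.970) and 1.04 (0.906 to 1.195), and 84.8% of its windows are shared with other genes. Atp5sl had ratios of 1.18 and 1.09. Atp5s had 495 and 770 normalized counts in the controls and 367 and 359 in csPIMT-/- hearts, with ratios of 0.745 (0.645 to 0.858) and 0.465 (0.409 to 0.527). The controls differed by a ratio of 1.48 for this gene, and after the GC trend was subtracted its ratios were 2.34 and 1.55.

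To ask which members differed between the genotypes over both ages, limma was fitted to log2 values of all 14935 genes that passed the filter, with genotype and age in the model. With 2 libraries a genotype and 1 residual degree of freedom, the result rests on variance borrowed across genes. After Benjamini-Hochberg adjustment over all genes limma called 4 of 47 members lower, or 8.51% against 17.9% of all genes, and 1 higher, or 2.13% against 12.1%. The lower members came from each of the complexes. Uqcrb fell by 1.67 on the log2 scale (SE 0.226, adjusted p = 0.0124), Cox7b by 1.37 (SE 0.209, adjusted p = 0.0140), Sdha by 1.02 (SE 0.281, adjusted p = 0.0450) and Atp5j by 0.84 (SE 0.211, adjusted p = 0.0361). Each was lower in 2 of 2 csPIMT-/- libraries than in both controls. Cox6a1 rose by 0.80 (SE 0.228, adjusted p = 0.0488) and was higher in 2 of 2. Atp5f1, with a log2 difference of −0.97 (SE 0.309), had an adjusted p of 0.0634, and Uqcrq, with 0.74 (SE 0.234), one of 0.0639.

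With the GC trend of each library subtracted before the fit, the log2 difference was −1.46 for Atp5j and −0.73 for Sdha, against −0.37 for Uqcrb, −0.031 for Cox7b and 0.073 for Cox6a1. None passed the threshold in that fit, where limma called 0 members and 0 of 14764 genes, with 1718 lower and 1866 higher at an unadjusted p under 0.05. Over the 13 alternatives of the fit the adjusted p of Uqcrb lay between 1.67e-06 and 0.429, that of Cox7b between 5.06e-05 and 0.942, that of Sdha between 0.00566 and 0.192, that of Atp5j between 0.0199 and 0.146 and that of Cox6a1 between 0.0327 and 0.995. When 1 library was left out, the calls depended on which one it was, for all genes as for the members. Each such fit also left age out of the model and kept 1 genotype as a single library, so its counts are not given. With genotype alone and all 4 libraries, limma still called Sdha lower but did not call Cox6a1, so that call was lost once age was left out. On the recovered reads, edgeR's quasi-likelihood test called 3 members lower (all genes 16.8%) and 0 higher (all genes 10.8%), and DESeq2 called 5 lower (all genes 20%) and 2 higher (all genes 14.7%), at an adjusted p below the same threshold. The direction of Sdha, Uqcrb, Cox7b and Atp5j was lower in every one of the 13. A fit with the GC content of the coding part, which turned the ratio of Atp5j at both ages and brought that of Uqcrb to 1.005 at 2 months, was not among them and was not run.

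**Figure D5:**
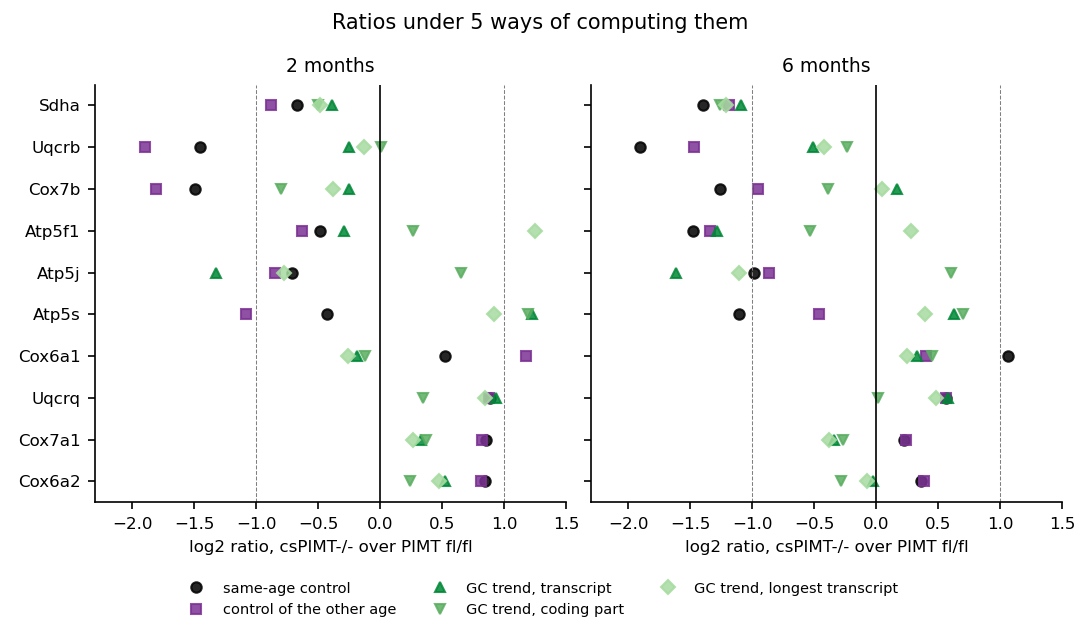
The x axis gives the log2 ratio of csPIMT-/- over PIMT fl/fl at 2 months (left) and 6 months (right) for 10 members (y axis), computed with the control of the same age, with the control of the other age, and after subtraction of the GC trend taken in 3 ways. Dashed lines mark 2-fold. All 5 symbols of Sdha lie below 0 at both ages, while those of Atp5j, Atp5f1 and Atp5s lie on both sides.

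Among the other genes of the pathway, complex I had mostly higher ratios and the assembly factors did not. Of 36 genes for nuclear subunits of complex I, 31 of the 35 compared had a ratio above 1 at 2 months and 25 of 35 at 6 months, with median ratios of 1.46 and 1.22. limma called 3 of 35 lower, Ndufs1, Ndufs4 and Ndufa5, and 1 higher, Ndufa11, against 17.9% lower and 12.1% higher among all genes. The median complex I ratio after the GC trend was subtracted was 1.22 at 2 months and 0.897 at 6 months, close to the 1.16 and 0.982 of complexes II to V. Cycs, which encodes the cytochrome c that carries electrons from complex III to complex IV, had 2221 and 2548 normalized counts in the controls and 312 and 542 in csPIMT-/- hearts. Its ratios were 0.141 and 0.212, or 0.372 and 0.625 after the GC trend was subtracted, and limma called it lower, by 2.52 on the log2 scale (SE 0.263, adjusted p = 0.0122). Of 30 assembly factors of complexes II to V listed, 18 were found under their current symbols, and older symbols were not searched. At 2 months 9 of these 18 had a ratio above 1 and at 6 months 8 did, with median ratios of 0.947 and 0.855. limma called 4 of 18 lower and 3 higher, against 17.9% and 12.1% of all genes.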

How the data were processed

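Poly(A) RNA of 4 pools of 5 mouse hearts was sequenced as directional single-end libraries of 50-base reads. The authors checked the reads with FastQC, removed adapters, poor reads and rRNA, aligned with STAR to mm10, counted reads per gene with HTSeq 0.6.1p1 on the UCSC annotation, and normalized with DESeq2 (versions of STAR and DESeq2 are not given in the sources used here). The deposited values are these normalized counts, a signal per gene and not raw counts. Dividing by the value of 1 read (0.865 to 1.23 in the 4 libraries) turned 100% of values into whole reads, with a largest deviation of 4.9e-09 reads. From the file of each sample, 1 column of values was read.

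Per age, the ratio of the 2 libraries used median-of-ratios size factors, a minimum of 10 reads in either library, and 0.5 reads added for log2 values. Exact Clopper-Pearson intervals at 95% cover counting error only, and with 1 library a group there is no test. Past 2-fold means a ratio below 0.5 or above 2. Over both ages, limma 3.58.1 in R 4.3.3 was fitted to log2 of TMM-scaled values plus 1, with genotype, age and a mean trend, on 14935 genes kept by filterByExpr, and p-values were adjusted by Benjamini-Hochberg at 0.05. edgeR 4.0.16 and DESeq2 1.42.0 on the recovered reads were alternatives. In the fits with genotype and age, the 1 residual degree of freedom is the departure of the 4 libraries from additive effects of the 2. The p-values hold no spread between replicates of a group. GC content, transcript lengths and shared 50-base windows came from GENCODE M21 (GRCm38), to which 98% of 23337 symbols matched, and trends with GC content were drawn by lowess (span 0.3). Promoters are those of RefSeq, whose starts can differ from the GENCODE gene coordinates given here.

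Every member was named, with full values for complex II, the complex IV form pairs, the c subunit genes and members past 2-fold in 1 direction at both ages. Other genes given with all their values were chosen after their values were seen. The members and lists were chosen with earlier results of these data known. The ratio and limma steps were run on simulated data. The counts simulated for limma had a fixed dispersion and held no age effect or GC trend. They do not show how the fit performs on these libraries.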

Additional observations from a re-analysis of the deposited data

Results flagged for a closer look

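Among the members with intervals on opposite sides of 1 at the 2 ages were 3 genes. Atp5a1 had a ratio of 1.21 at 2 months and 0.861 at 6 months, Cox7a2 had 1.22 and 0.907, and Atp5g2 had 0.651 and 1.75. With 1 library in each group, the difference between the ages was not tested. With the control of the other age, Atp5a1 had 1.23 and 0.837 and Cox7a2 had 1.25 and 0.878, the same directions, while Atp5g2 had 1.13 and 0.996. After the GC trend of the transcript was subtracted, Atp5a1 had 1.203 and 0.832, Cox7a2 had 1.06 and 0.756, and Atp5g2 had 0.418 and 1.11. The reads of Atp5g2 numbered between 66 and 145.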

How the results depend on the processing

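The GC corrections by the longest transcript and by the coding part were chosen after seeing the data. At 2 months, members below 0.5 numbered 1 with either of these 2, and members above 2 numbered 1 with the control of the other age, 3 with the GC trend of the transcript or of the coding part, and 5 with that of the longest transcript. At 6 months, members below 0.5 numbered 3 by the longest transcript and 2 by the coding part. Members above 2 numbered 0 with the control of the other age or both controls averaged and 3 by the longest transcript. Among these settings, the share of all genes past 2-fold was computed for the GC trend of the transcript alone. The median log2 ratio of the members at 2 months, 0.41, was 0.52 with the control of the other age, 0.47 with both controls or at least 100 reads, 0.38 with no minimum of reads, and 0.21, 0.25 and 0.27 after GC correction by transcript, longest transcript and coding part. The median log2 ratio of the members at 6 months, 0.28, became 0.12 with the control of the other age, 0.24 with both controls, and −0.026, 0.0003398 and 0.06625 after these corrections. With the GC trend subtracted (either transcript) or with no mean trend, limma called 0 members lower or higher, and 0 of all genes. It also called 0 members higher with median-of-ratios size factors and with genotype alone. In these 2 fits 1625 and 1962 of 14935 genes were called higher. The calls also changed when 1 library was left out. edgeR called 0 higher and DESeq2 2. Without a mean trend, limma had 3387 genes lower and 2547 higher at an unadjusted p under 0.05. Fits without 1 library also leave age out of the model. They leave a group of a single library that is assumed to vary like the others.

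Of the members above 1 at both ages, 24 did not stay above 1 at both ages under every setting, and of those below 1, 9 did not stay below, Atp5j among them. Among values past 2-fold or called by limma, directions turned as follows. After GC correction the log2 ratio of Uqcrb at 2 months was 0.006787 (coding part), and at 6 months that of Atp5f1 was 0.28 (longest transcript), Cox7b 0.17 and 0.050 (transcript, longest), Atp5s 0.63, 0.40 and 0.70 (transcript, longest, coding), and Cox7b2 0.91, 0.76 and 0.86. The limma log2 difference of Cox6a1 was −0.0026 by the longest transcript. The cause was not tested. No paired analysis was possible because each group has a single library and the replicate number pairs no animals. Depth limited Cox7b2, Cox6b2 and Atp5g2.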
